A study of Mus musculus with 30 samples.

Results

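Potassium channel genes were taken as all genes of the deposited table whose symbol starts with Kcn, which gave 97 of 23993 genes. They hold the pore-forming alpha subunits of the voltage-gated (Kv), calcium-activated, inward rectifier (Kir) and two-pore families, their auxiliary subunits and 3 long noncoding RNAs named after a channel locus. Potassium channels let potassium leave or enter the cell and so set the resting membrane potential and end the action potential. Channels of the Kv3 family open and close fast and let fast-spiking Pvalb interneurons fire at high rates, whereas Kir4.1 (Kcnj10), often joined by Kir5.1 (Kcnj16), takes up extracellular potassium in astrocytes and oligodendrocytes. Microglia are known for the two-pore channel THIK-1 (Kcnk13), which holds their resting potential, for Kir2.1 (Kcnj2) and, when activated, for Kv1.3 (Kcna3).

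The RNA came from tdTomato-positive cells of the medial prefrontal cortex (mPFC) of mice, sorted by fluorescence-activated cell sorting. All mice were heterozygous C57BL/6 reporter animals 6 to 12 weeks old, in which Cre expressed from the Sst (somatostatin) or the Pvalb (parvalbumin) gene switched on the Cre-dependent Ai9 (RCL-tdTomato) allele. The reporter therefore marks every cell that ever expressed the Cre. The 24 libraries came from nonstressed Sst females (7), nonstressed Sst males (7), Sst males after 14 days of chronic unpredictable stress (CUS, 3) and nonstressed Pvalb males (7), and the labels place 6 further libraries in a condition that are not analysed here. Values are FPKM, fragments scaled by transcript length and by library size, and since FPKM is per length, levels may be set side by side between genes.

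Several features of the libraries touch every result. The titles of 4 control Sst males are short (SST0-M to SST4-M) and those of the other 3 and of all CUS males are long (for example SS04031R), and of the summed FPKM, 53.5% to 75.7% fell on snoRNA and scaRNA genes in the long-titled libraries and 1.87% to 8.29% in the others. SST0-M hardly differed from SST1-M, nor PV0-M from PV2-M: their log2 ratios had an SD across genes of 0.0212 and 0.0170, where the closest other pairs of those groups had 0.267 and 0.225. Each of these pairs was averaged and counted as 1 sample, which left 22 samples. PV1-M, PV4-M and PV5-M, labelled male, held 300.2 to 333.1 FPKM of Xist, the RNA of the inactive X chromosome, against 0.439 to 6.64 in the other Pvalb libraries and 479.4 to 643.6 in the Sst females. The 12 microglia markers summed to 3531 to 10021 FPKM per library and the 9 interneuron markers to 4.60 to 67.6, so the defining markers of the labelled interneurons were low beside those of microglia. Gad1 (GABA synthesis) reached at most 2.05 FPKM, Pvalb was listed at 0 in 11 of 24 libraries and Sst in 1. Only fractions of the total are measured in such bulk samples, so fewer cells of a type and less RNA per cell cannot be told apart.

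The potassium channel genes were mostly low, and a few of them carried most of the signal. Their mean level over the 22 samples exceeded 0.4 FPKM, the limit of expression in the study, in 60 of 97 (61.9%), close to the 60.7% of all 23993 genes, but the median of the mean levels was 0.680 FPKM against 2.01 FPKM over all genes. Above a mean of 10 FPKM were 11 members (11.3%) and 26.6% of all genes. In every library 23 members were above 0.4 FPKM, while Kcne1, Kcne3, Kcnk15, Kcnk16 and Kcnv2 (chosen here for their values) were listed at 0 in all 24. The levels of all members summed to 256.9 to 781.7 FPKM per sample, with a median of 480.7 FPKM.

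Kcnj10, the glial Kir4.1, and Kcnk1, the two-pore channel TWIK-1, led the list. Their means over all samples were 81.2 FPKM and 78.9 FPKM, and together they made up 19.1% to 57.4% of the summed level of the members in a sample. These 2 did not differ in order beyond their spread, since Kcnj10 was the higher in 12 of 22 samples. Kcnk1 was above the gene ranked next in all 22 samples. That gene was Kcnip3 (KChIP3, a calcium sensor that binds Kv4 channels), with a mean of 33.7 FPKM. It was followed by the two-pore channel Kcnk6 (25.6 FPKM), the small-conductance calcium-activated channel Kcnn2 (22.2), Kcnj16 (21.6), the axonal Kv1.2 subunit Kcna2 (20.8), the small-conductance channel Kcnn3 (17.1), the Kv4.1 subunit Kcnd1 (16.3) and Kcnrg, a soluble regulator of Kv channels (15.8). From Kcnip3 down, each gene of this order was above the next in only 9 to 17 of 22 samples, so these neighbours were not separated beyond their spread.

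**Figure D1:**
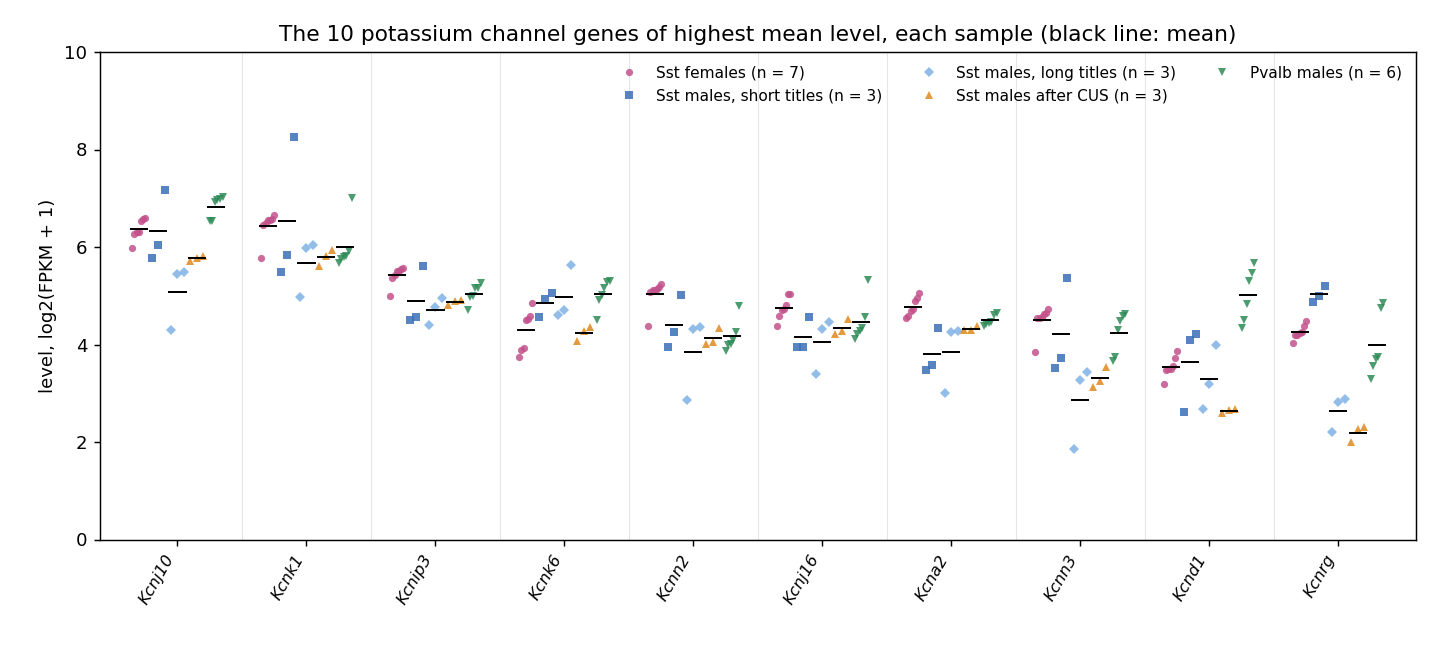
Level of the 10 potassium channel genes of highest mean in each of the 22 samples, as log2(FPKM + 1), by set; points are spread sideways only to keep them apart and black lines are means. Kcnj10 and Kcnk1 lie highest, 1 male Sst sample (SST0-M+SST1-M) stands at 304.9 FPKM of Kcnk1, and Kcnrg is at 28.4 to 36.0 FPKM in the short-titled male controls, at 3.60 to 6.42 FPKM in the long-titled controls and at 2.98 to 3.97 FPKM after CUS.

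The glial Kir genes are given with the bases before their start, since these genes and the microglial Kcnj2 are Kir genes of high level that different glia are known for. The 250 bases before the start listed in RefSeq (GRCm38.p6, the build that mm10 names, all on the plus strand) are chr1:172340960-172341209 for Kcnj10, chr11:110967783-110968032 for Kcnj16 (the first of 4 starts listed) and chr11:111065914-111066163 for Kcnj2. Capitals mark matches on either strand to GAGGAA, a core of the motif of PU.1, the factor of the microglial lineage, or to GGGCGG, the GC box. No match of one motif overlaps one of the other here.
Kcnj10: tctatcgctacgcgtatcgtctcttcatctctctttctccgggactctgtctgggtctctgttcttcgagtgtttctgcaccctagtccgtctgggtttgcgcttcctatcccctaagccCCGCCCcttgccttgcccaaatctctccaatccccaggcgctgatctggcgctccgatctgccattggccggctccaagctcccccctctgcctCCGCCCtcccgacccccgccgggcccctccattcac
Kcnj16: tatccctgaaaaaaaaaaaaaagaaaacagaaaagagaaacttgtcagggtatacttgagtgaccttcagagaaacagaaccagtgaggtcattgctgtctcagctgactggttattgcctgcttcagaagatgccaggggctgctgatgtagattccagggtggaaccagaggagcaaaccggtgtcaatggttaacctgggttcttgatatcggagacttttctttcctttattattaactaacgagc
Kcnj2: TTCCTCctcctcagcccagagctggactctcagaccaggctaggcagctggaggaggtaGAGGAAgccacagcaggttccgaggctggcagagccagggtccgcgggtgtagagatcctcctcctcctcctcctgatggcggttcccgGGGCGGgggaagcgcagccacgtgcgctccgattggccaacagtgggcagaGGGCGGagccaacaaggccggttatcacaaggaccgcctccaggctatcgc
The Kcnj2 window held 2 GAGGAA and 2 GGGCGG matches, the Kcnj10 window 2 GGGCGG matches and the Kcnj16 window none of either. CpG dinucleotides numbered 17 in the Kcnj10, 14 in the Kcnj2 and 3 in the Kcnj16 window. Of 27025 such windows of all genes, 23.1% held GAGGAA and 32.9% held GGGCGG, and of the 71 members with a window 20 and 34 did. Among the microglial list 4 of 5 windows held GAGGAA (Kcna3, Kcna5, Kcnj2 and Kcnk13), and among the Kv3 genes 0 of 3 did. A match is a description of these letters and says nothing of binding.

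Kcnj10 and Kcnj16 were high in every group. Kcnj10 had a median of 78.4 FPKM in the Sst females (61.7 to 95.9, n = 7) and of 122.2 FPKM in the Pvalb males (91.3 to 128.8, n = 6). In the male Sst controls it was at 143.6, 53.5 and 64.7 FPKM in the short-titled and at 18.7, 44.2 and 42.6 FPKM in the long-titled samples, and after CUS at 51.5, 55.7 and 53.6 FPKM. The long-titled male controls were thus below all other sets, and SS04031R was the lowest of all samples. Kcnj16 ran from 9.47 FPKM in SS04031R to 39.2 FPKM in PV0-M+PV2-M, with medians of 25.4 FPKM in Sst females, 14.5 and 19.0 FPKM in short- and long-titled Sst males, 18.4 FPKM after CUS and 18.8 FPKM in Pvalb males. Astrocyte markers went with Kcnj10 in some comparisons and not in others. Slc1a2, a defining astrocyte transporter, was listed at 0 in 14 of 24 libraries, all of the Sst controls, and at 740.9 to 1038 FPKM in the Pvalb males and 778.9 to 851.4 FPKM after CUS. Such an exact 0 may be a failed estimate. The other 6 markers summed to 358.0 to 609.7 FPKM in the Pvalb libraries (median 415.2), where Kcnj10 was highest, and to 409.3 to 682.3 FPKM in the Sst females (median 650.8). In the long-titled controls they summed to 330.2 FPKM in SS04031R and to 769.2 and 820.0 FPKM in the other 2. In the short-titled males they summed to 360.0 FPKM in SST3-M, 443.9 FPKM in SST4-M and 935.0 and 935.1 FPKM in SST0-M and SST1-M. There Kcnj10 had the same order, and SS04031R had both the lowest Kcnj10 and the lowest such sum of all samples. The part of these cells in the level of the glial Kir genes was not tested.

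Of the 6 microglial channels, 3 were well above the limit of expression and 3 were near or below it. Kcnk6, a two-pore channel of low current, had a mean over all samples of 25.6 FPKM, Kcnk13 of 9.17 FPKM and Kcnj2 of 8.45 FPKM, whereas Kcna3 (0.430 FPKM), the calcium-activated Kcnn4 (0.339 FPKM) and the Kv1.5 subunit Kcna5 (0.179 FPKM) were listed at 0 in 4, 7 and 13 of 22 samples. The 3 higher ones together held 3.99% to 33.1% of the summed level of the members, and the share was highest in SS04031R, which also had the highest sum of microglia markers (10021 FPKM). Kcnk13 separated by kind of title. It was at 2.94 to 5.39 FPKM in the Sst females (median 4.16), at 8.46, 5.48 and 6.90 FPKM in the short-titled males, at 22.5, 14.8 and 15.5 FPKM in the long-titled males, at 13.1, 12.8 and 17.1 FPKM after CUS and at 6.07 to 13.6 FPKM in the Pvalb males (median 8.25). Every long-titled sample except SS04031RL and SS04031LL was thus above every other sample, and those 2 were exceeded only by PV4-M. Kcnj2 was at 4.43 to 6.05 FPKM in 6 Sst females and at 16.4 FPKM in SST-F, and at 6.99 to 9.87 FPKM in 5 Pvalb samples and at 19.7 FPKM in PV0-M+PV2-M. Kcnk6 ranged from 12.5 to 48.4 FPKM, with the lowest value in an Sst female (SST4-F) and the highest in SS04031R.

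The Kv3 genes were low in every set, the Pvalb samples included. Kcnc4 (Kv3.4) had a mean of 5.27 FPKM, Kcnc1 (Kv3.1) of 2.11 FPKM and Kcnc2 (Kv3.2), which other cortical interneurons also use, of 0.318 FPKM. The level of all 4 Kv3 genes of the table summed to 8.93 to 14.4 FPKM in the Pvalb males (median 11.03), where the sum of the microglial channels was 45.2 to 59.5 FPKM. Kcnc1, the Kv3 gene best known from Pvalb cells, was at 2.73, 4.84, 4.38, 4.19, 3.35 and 4.36 FPKM in the 6 Pvalb samples and at 1.08 to 2.54 FPKM in the 7 Sst females. It stood at 0.959, 0.944 and 1.68 FPKM in the short-titled Sst males, at 1.17, 0.808 and 1.11 FPKM in the long-titled ones and at 1.13, 1.55 and 1.28 FPKM after CUS. Every Pvalb sample was above every Sst sample. Kcnc2 did not pass the filter of a mean above 0.4 FPKM in any comparison, and it was highest in SST-F (1.16 FPKM) and PV6-M (1.04 FPKM), with 0.0856 FPKM in PV0-M+PV2-M and 0.319 to 0.698 FPKM in the other 4 Pvalb samples. Kcnc4 ran the other way in part, at 7.87 to 9.20 FPKM in 6 Sst females, 1.47 FPKM in SST-F and 2.49 to 6.10 FPKM in the Pvalb males.

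**Figure D2:**
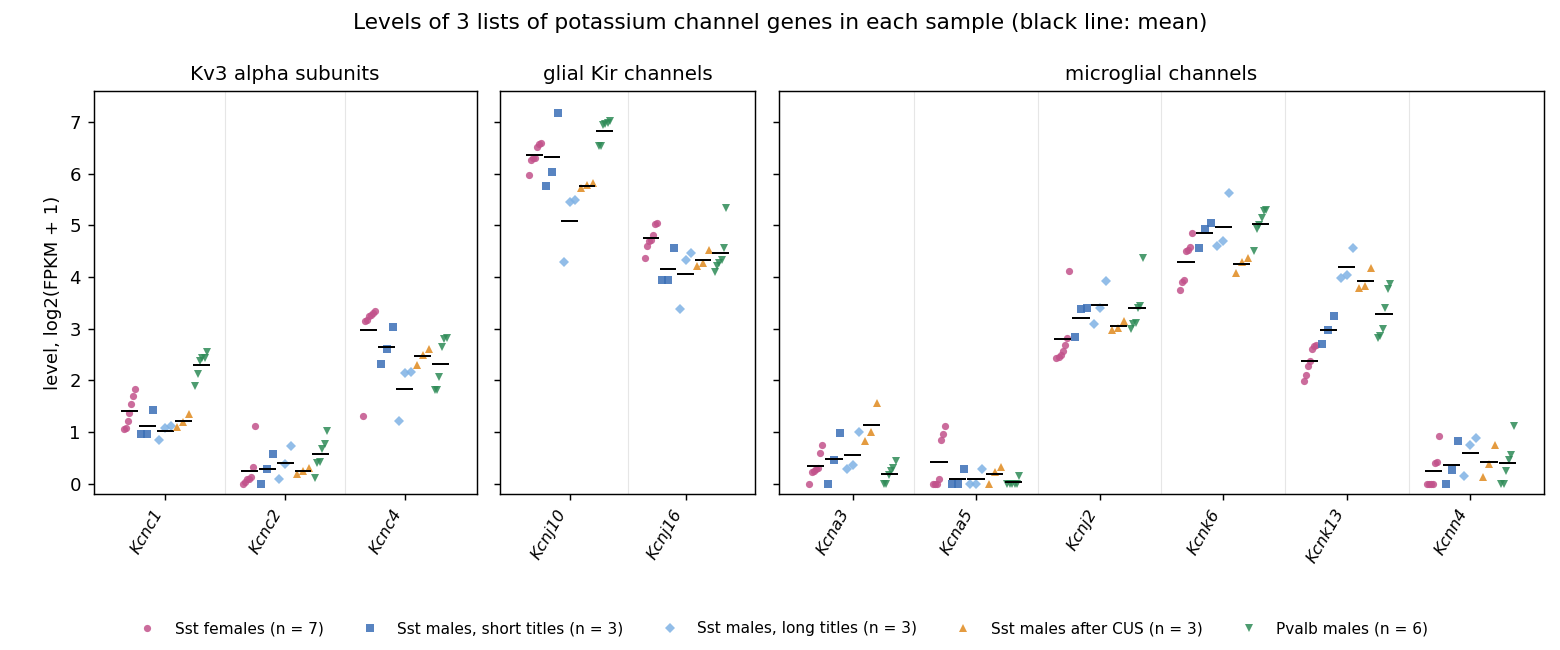
Level of 3 Kv3 alpha subunits, the glial Kir channels and the microglial channels in each of the 22 samples, as log2(FPKM + 1), by set; points are spread sideways only to keep them apart and black lines are means. Kcnj10 lies far above the Kv3 genes shown, Kcnc1 is higher in all 6 Pvalb samples than in any Sst sample, and Kcnk13 is high in the long-titled Sst males.

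In the other families single genes held most of the level. Kcna2 led the Kv1 family, Kcnd1 led Kv4, Kcnq3 (a subunit of the M-current) the Kv7 family with 3.63 FPKM, Kcnh3 (an ELK channel) the Kcnh family with 1.43 FPKM, and Kcng4 the silent Kv subunits, which do not form channels alone, with 1.90 FPKM. Only 1 of the 10 silent subunits and 4 of the 8 Kcnh genes had a mean above 0.4 FPKM, against 6 of the 8 calcium- and sodium-activated genes and 11 of the 15 Kir genes. The noncoding Kcnq1ot1, the imprinted antisense RNA of the Kcnq1 locus, had a mean of 5.27 FPKM. Since it overlaps Kcnq1 (0.174 FPKM), reads of the 2 genes cannot be told apart without strand. Of the 97 members, 45 overlap another RefSeq gene.

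Among genes with a mean above 0.4 FPKM, 2 were listed at 0 throughout a group. Kcne4, a subunit that inhibits Kv1 channels, was at 0 in all Pvalb libraries and between 0 and 5.98 FPKM in the Sst females, where SST-F was the highest. Kcnip1 (KChIP1), a Kv4 subunit of interneurons, was at 0 in the 3 long-titled male controls and between 0.764 and 1.53 FPKM in 5 of the 6 Pvalb samples. PV0-M+PV2-M was again the exception, at 0. Without counts an exact 0 may also be a failed estimate, so no fold is given for these genes, although both stand among the members tested below, where neither passed.

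The Sst and Pvalb controls were compared with all Sst controls of short titles (7 females and 3 males) against the 6 Pvalb samples. The question was which transcripts differ between libraries of the 2 labels. The Sst transcript itself was not higher in the Sst libraries, as given below. Most of the potassium channel genes that changed were lower in Sst, among them Kv7, Kv4 and Kv3 genes. Of 97 members 58 had a mean above 0.4 FPKM and were tested, and 13 passed an adjusted p of 0.05 (limma over 14483 genes). Of these 11 were lower and 2 higher in Sst, where the background was 5.34% of all genes tested lower and 4.87% higher. Those 13 are 22.4% of the members tested, where 10.2% of all genes tested passed. Their median log2 fold change (58 members) was -0.18, against 0.01 over all genes tested, and 26 members (44.8%, and 27.6% of all genes tested) had a p below 0.05 before adjustment.

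**Figure D3:**
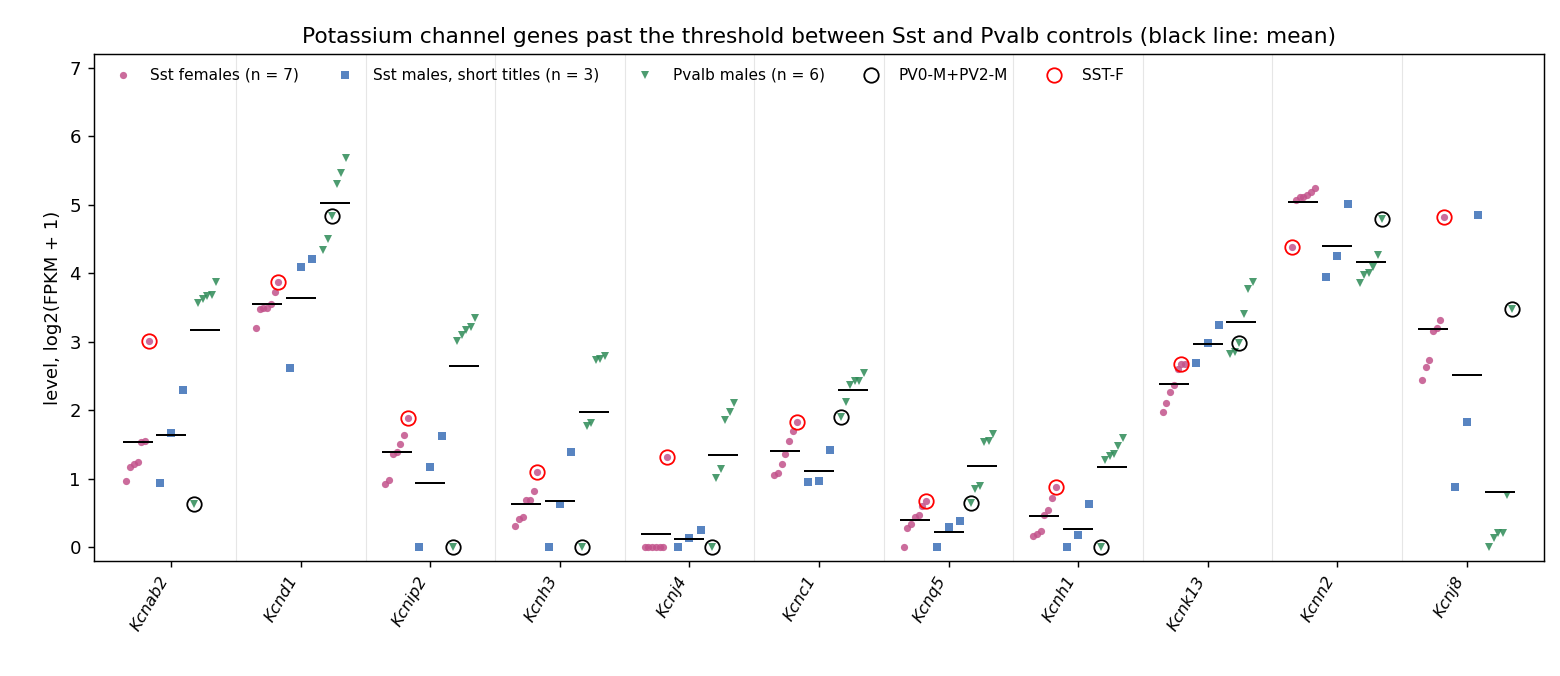
Level of 11 of the 13 potassium channel genes past the threshold in Sst females, short-titled Sst males and Pvalb males, as log2(FPKM + 1), ordered by fold change; points are spread sideways only to keep them apart, black lines are means, and circles mark PV0-M+PV2-M (black) and SST-F (red). For most of the lower genes the 5 other Pvalb samples lie above all Sst samples while PV0-M+PV2-M lies among or below them.

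The Kv7 genes carry the M-current, which damps repetitive firing. Kcnq5 (named after its values were seen) was at 0.564 FPKM in PV0-M+PV2-M, at 0.800 to 2.13 FPKM in the other 5 Pvalb samples and at 0 to 0.597 FPKM in the 10 Sst samples. It fell by 0.84 on the log2 scale (SE 0.19, adjusted p = 0.0118). Kcnq3, with a log2 fold change of 0.02, did not pass.

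Kcnd1, the Kv4.1 subunit of the fast A-type current, was the most abundant gene with a lower level. It was at 27.6, 38.5, 19.3, 43.3, 50.2 and 21.6 FPKM in the Pvalb samples and at 5.13 to 17.5 FPKM in Sst (median 10.6, n = 10), so that the groups did not overlap. The log2 fold change was -1.45 (SE 0.24, adjusted p = 0.00337). Kcnd1 lies on the X chromosome (X:7823759-7838278 in GRCm38.p6) and was at 38.5 to 50.2 FPKM in the 3 Pvalb libraries of high Xist, against 19.3 and 21.6 FPKM in PV3-M and PV6-M. The Sst females, whose Xist was 479.4 to 643.6 FPKM, had Kcnd1 at 8.19 to 13.6 FPKM. In the short-titled Sst males it was at 5.13, 16.1 and 17.5 FPKM. A part of X linkage in these levels was not tested. Kcnc1 was the only other gene whose groups did not overlap, which held for 1.44% of all genes tested. Its log2 fold change was -0.98 (SE 0.19, adjusted p = 0.00631), while Kcnc4 (0.55) did not pass.

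The auxiliary subunits Kcnab2 (Kv beta 2, which guides Kv1 channels to the axon) and Kcnip2 (KChIP2, a Kv4 partner) and the ELK channel Kcnh3 shared a pattern. Kcnab2 was at 0.550 FPKM in PV0-M+PV2-M, at 10.9 to 13.6 FPKM in the other 5 Pvalb samples and at 0.922 to 7.10 FPKM in Sst, with SST-F the highest. Kcnip2 was listed at 0 in PV0-M+PV2-M, at 7.09 to 9.19 FPKM in the other 5 and at 0 to 2.70 FPKM in Sst. For Kcnh3 these values were 0, 2.42 to 5.95 and 0 to 1.64 FPKM. Their log2 fold changes were -1.61 (SE 0.43, adjusted p = 0.0252), -1.39 (SE 0.42, adjusted p = 0.0430) and -1.33 (SE 0.35, adjusted p = 0.0235). Kcnh3 shares its locus with Mcrs1, and Kcnab2 with Nphp4, so their levels are uncertain where reads overlap. The Kir2.3 gene Kcnj4, a rectifier of forebrain neurons, was listed at 0 in PV0-M+PV2-M and at 1.02 to 3.30 FPKM in the other 5 Pvalb samples, and at 0 in 6 of 7 Sst females but at 1.501 FPKM in SST-F, within the Pvalb range (log2 fold change -1.18, SE 0.29, adjusted p = 0.0171). Kcnh1, an EAG channel named after its values were seen, fell by 0.78 (SE 0.23, adjusted p = 0.0369).

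Kcnk13 was the only microglial channel past the threshold. It was at 2.94 to 8.46 FPKM in Sst and at 6.07 to 13.6 FPKM in Pvalb, and its log2 fold change was -0.73 (SE 0.22, adjusted p = 0.0449). Kcnk6 (-0.57, adjusted p = 0.0789) and Kcnj2 (-0.48, adjusted p = 0.243) did not pass. Of the 12 microglia markers 11 had a lower mean in Sst and 1 passed, with sums of 3653 to 9337 FPKM in Sst and 7343 to 8509 FPKM in Pvalb. The glial Kir genes did not pass either, at -0.47 for Kcnj10 (adjusted p = 0.0985) and 0.11 for Kcnj16 (adjusted p = 0.777).

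Both genes higher in Sst had 1 Pvalb sample or more among the Sst values. Kcnj8 (Kir6.1, the ATP-sensitive channel of pericytes and vascular muscle) was at 10.2 FPKM in PV0-M+PV2-M and at 0 to 0.704 FPKM in the other 5 Pvalb samples. In Sst it ran from 0.837 to 27.7 FPKM with a median of 6.76 FPKM, and the log2 fold change was 2.18 (SE 0.58, adjusted p = 0.0251). The 4 pericyte markers, of which Abcc9 is the partner subunit of Kcnj8, summed to 289.2 and 289.4 FPKM in PV0-M and PV2-M, to 10.5 to 27.4 FPKM in the other Pvalb libraries and to 37.2 to 393.4 FPKM in the short-titled Sst libraries. Kcnn2 was at 14.5 to 37.0 FPKM in Sst and at 13.6 to 26.8 FPKM in Pvalb (log2 fold change 0.68, SE 0.21, adjusted p = 0.0482).

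Neuronal and vascular markers moved with this comparison as well. Pan-neuronal markers (2 of 6 lower in Sst past the threshold, 0 higher) summed to 27.4 to 285.4 FPKM in the Pvalb and to 36.6 to 209.1 FPKM in the short-titled Sst libraries, and their mean log2 level was 1.43 and 1.42 in PV0-M and PV2-M but 3.92 to 4.17 in the other Pvalb libraries and 4.002 in SST-F. Of 11 members lower in Sst, 8 were lower in PV0-M+PV2-M than in the 5 other Pvalb samples, and 6 had their highest Sst level in SST-F. Without PV0-M+PV2-M and SST-F, 22 members passed, 17 lower and 5 higher in Sst. The share of all genes past the threshold in that fit is not given here, so the rise is not read as particular to the members. With the pan-neuronal marker level as a covariate 2 passed, and with that of the microglia markers 0 (4 with a p below 0.05 before adjustment). The mean log2 level of the microglia markers was 7.87 to 8.62 in the short-titled Sst and 8.67 to 9.13 in the Pvalb libraries. As these ranges do not overlap, the fit cannot separate that level from the groups, and nothing is concluded from the 0. What part these cells have in the differences was not tested beyond these fits.

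The 3 Pvalb libraries of high Xist stood apart from PV3-M and PV6-M in many genes. All 3 were above both others in 22 of 60 members (36.7%) and below both in 16 (26.7%), where 33.4% and 33.8% of 14566 genes did so. Kcnrg was at 8.84 to 11.99 FPKM in the 3 and at 25.9 and 28.0 FPKM in PV3-M and PV6-M. Leaving out PV1-M, PV4-M or PV5-M alone left 5 members past the threshold each, and PV6-M 8. Without the 3 libraries of high Xist no member passed between Sst and Pvalb (limma, 9 of 55 with a p below 0.05 before adjustment). Kcnd1 then fell by 0.98 (adjusted p = 0.144) and Kcnc1 by 0.93 (adjusted p = 0.137). All Pvalb samples were labelled male, whereas 7 of the 10 Sst samples were female. With the 3 short-titled Sst males alone 0 members passed (15 with a p below 0.05 before adjustment), and with the 7 Sst females alone 20 did, so that sex and cell class cannot be told apart in the larger count. Shares over all genes are not given for these fits.

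The sexes were compared in nonstressed Sst mice, the 7 females against the 3 short-titled male samples. Kcna2, the Kv1.2 subunit of the axon initial segment and juxtaparanode, was higher in females, and Kcnrg was lower. Of 52 members tested these 2 passed, against a background of 1.75% of 14443 genes higher and 1.66% lower. Kcna2 was at 22.4 to 32.1 FPKM in the females (median 25.5) and at 10.1, 11.001 and 19.2 FPKM in the males, with a log2 fold change of 0.98 (SE 0.21, adjusted p = 0.0323). Kcnrg was at 15.4 to 21.2 FPKM in the females (median 18.0) and at 36.0, 28.4 and 30.9 FPKM in the males, with a log2 fold change of -0.77 (SE 0.15, adjusted p = 0.0239). Neither gene's groups overlapped, which was so for 5 of 52 members and 9.73% of all genes tested.

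Of 52 members 37 had a higher mean log2 level in females (71.2%, and 54.1% of all genes tested), with a median log2 fold change of 0.35 against 0.05 over all genes tested. A p below 0.05 before adjustment was found in 14 (26.9%), near the 24.3% of all genes tested. Single samples weigh on this shift. Of the 60 members with a mean above 0.4 FPKM over all samples, SST0-M+SST1-M was the lowest short-titled male in 40 (66.7%, against 47.1% of all genes). SST-F was the highest Sst female in 31 of them (51.7%, against 31.5%). The shift is therefore not read as a trait of sex. Among the Kv3 genes, Kcnc4 (log2 fold change 0.32) and Kcnc1 (0.28) did not pass. The 3 microglial channels tested were lower without passing, at -0.59 for Kcnk13 (adjusted p = 0.154), -0.56 for Kcnk6 and -0.41 for Kcnj2. Vascular markers moved with sex too: 4 of 4 pericyte markers were higher in females, 3 of them past the threshold (sums of 159.2 to 393.4 FPKM against 37.2 to 123.1 FPKM), and 5 of 5 endothelial markers, 2 of them past it. Of the 12 microglia markers 6 were lower in females past the threshold, and 1 was higher. Glial Kir genes did not pass, with log2 fold changes of 0.04 for Kcnj10 and 0.60 for Kcnj16. Without SST0-M+SST1-M and SST-F, 16 members passed, and leaving out 1 sample at a time gave 0 to 6 (0 without SST1-F, SST2-F, SST3-F, SST5-F, SST6-F or SST3-M, 1 without SST4-F, 6 without SST-F, 5 without SST0-M+SST1-M and 4 without SST4-M). No share over all genes is given beside these counts, so they are not read as particular to the members.

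The call of Kcnrg turned with the choice of males. Against the 3 long-titled males, in which it was at 6.42, 6.10 and 3.60 FPKM, Kcnrg was higher in females by a log2 fold change of 1.61 (adjusted p = 2.44e-05), and with all male controls it was at 0.42 (adjusted p = 0.543). Kcnrg lies inside the locus of Trim13 and the noncoding Dleu2 (chr14:61607457-61612833 in GRCm38.p6), so reads of these genes may be shared. Kcna2 was at 6.98, 18.3 and 18.1 FPKM in the long-titled males, below all females as well.

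**Figure D4:**
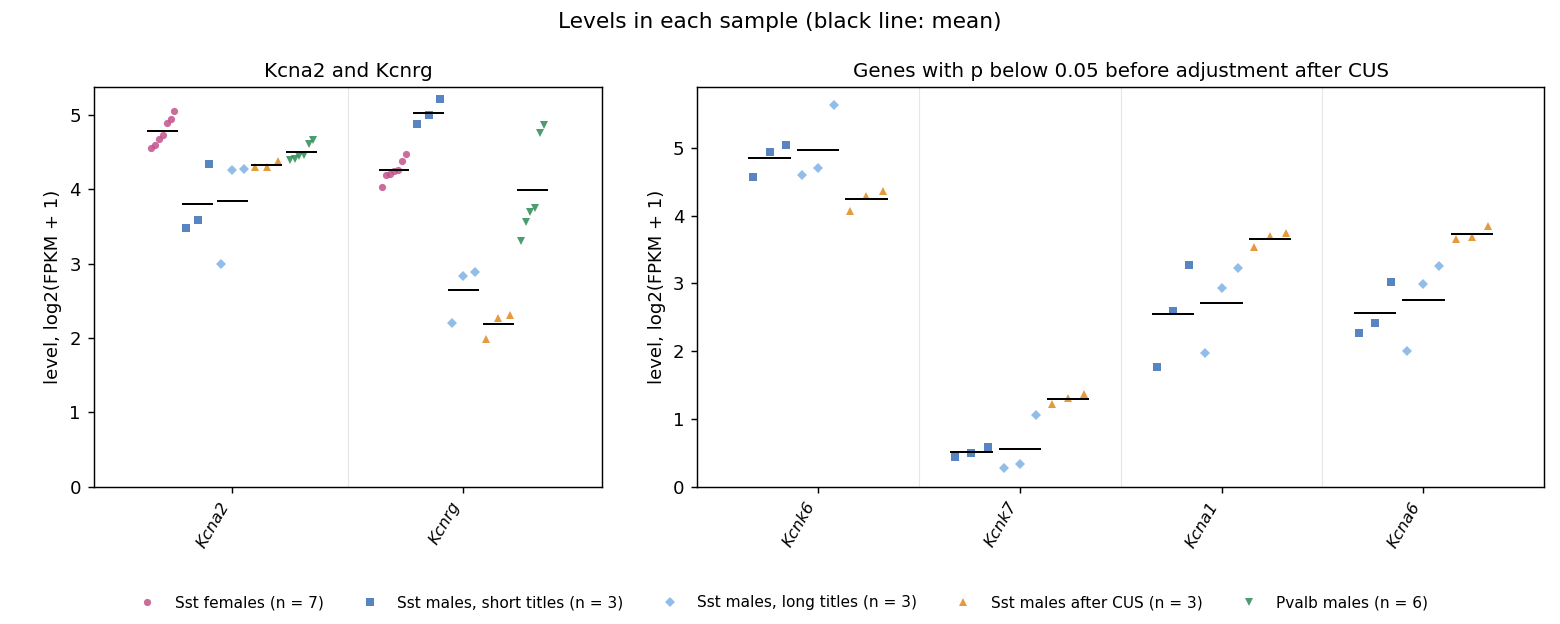
Level of Kcna2 and Kcnrg in all 5 sets (left) and of the 4 members with a p below 0.05 before adjustment after CUS in the Sst males (right), as log2(FPKM + 1); points are spread sideways only to keep them apart and black lines are means. Kcna2 is higher in the females than in all male Sst samples, Kcnrg is far lower in all long-titled libraries, and SS04031R holds the extreme value among the long-titled controls of Kcnk6, Kcna1 and Kcna6.

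Kind of title was compared in the nonstressed Sst males, 3 long-titled against 3 short-titled samples, since no label of a condition separates them. Kcnrg was the only member of 54 past the threshold, lower in the long-titled samples by a log2 fold change of -2.39 (SE 0.29, adjusted p = 0.0114). The background was 2.3% of 14230 genes lower and 1.81% higher. Kcnk13 was higher by 1.22 (SE 0.30) and Kcnj10 lower by a log2 fold change of -1.25 (SE 0.48), both with groups that did not overlap, but their adjusted p were 0.0677 and 0.176. Groups did not overlap in 5 of 54 members (9.26%) and in 33.5% of all genes tested. No Kv3 gene passed, with log2 fold changes of -0.82 for Kcnc4 and -0.10 for Kcnc1. Without SS04031R and SST0-M+SST1-M 9 members passed, 7 higher and 2 lower, a count given without the share over all genes. None passed without SST040241L, SST04241LL or SST3-M (4, 3 and 4 with a p below 0.05 before adjustment).

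CUS was examined in the 3 stressed Sst males against the 3 long-titled controls, the same kind of title, to ask which transcripts 14 days of stress changed. No potassium channel gene passed the threshold (limma, 55 members tested, 4 with a p below 0.05 before adjustment), against a background of 0.00705% of 14186 genes higher and 0% lower. Those 4 were 7.27% of the members tested, near the 6.74% of all genes tested with such a p. The 4 genes, 3 of them named after their values were seen, were Kcna6, Kcna1, Kcnk7 and Kcnk6. Kcna6 (Kv1.6) was at 11.6, 11.8 and 13.4 FPKM after CUS and at 3.005, 8.57 and 6.96 FPKM in the controls, and Kcna1 (Kv1.1) at 12.03, 10.7 and 12.4 against 2.91, 8.36 and 6.61 FPKM. Their log2 fold changes were 0.98 (SE 0.32) and 0.96 (SE 0.32), each with an adjusted p of 0.647. Kcnk7 (log2 fold change 0.74, SE 0.26) and Kcnk6 (-0.73, SE 0.28) had the same adjusted p, and in all 4 genes the groups did not overlap, which was so for 10 of 55 members (18.2%) and 18.7% of all genes tested.

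No glial Kir, microglial or Kv3 gene passed after CUS. Kcnj10 was above the controls in all 3 samples (log2 fold change 0.69, SE 0.32, adjusted p = 0.647) and Kcnj16 was at 0.28. The 1 astrocyte marker past the threshold was Slc1a2, listed at 0 in all controls, and the other 6 summed to 649.8, 698.4 and 805.2 FPKM after CUS against 330.2, 769.2 and 820.0 FPKM in the controls, so that the groups overlapped. The oligodendrocyte markers summed to 1600 to 1967 FPKM against 391.3 to 1284 FPKM. Microglial channels were at -0.73 (Kcnk6), -0.42 (Kcnj2), -0.27 (Kcnk13), -0.17 (Kcnn4) and 0.58 (Kcna3), while 0 of 11 microglia markers were higher. Kcnc4 was at 0.63 and Kcnc1 at 0.19 on the log2 scale. Without SS04031R, whose astrocyte and oligodendrocyte sums were the lowest and whose microglia sum was the highest of all libraries, 0 members passed as well (9 with a p below 0.05 before adjustment), and the median log2 fold change of the members went from 0.18 to -0.05. With the short-titled males as the controls 4 passed (share over all genes not given), but there stress and the kind of title cannot be told apart.

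**Figure D5:**
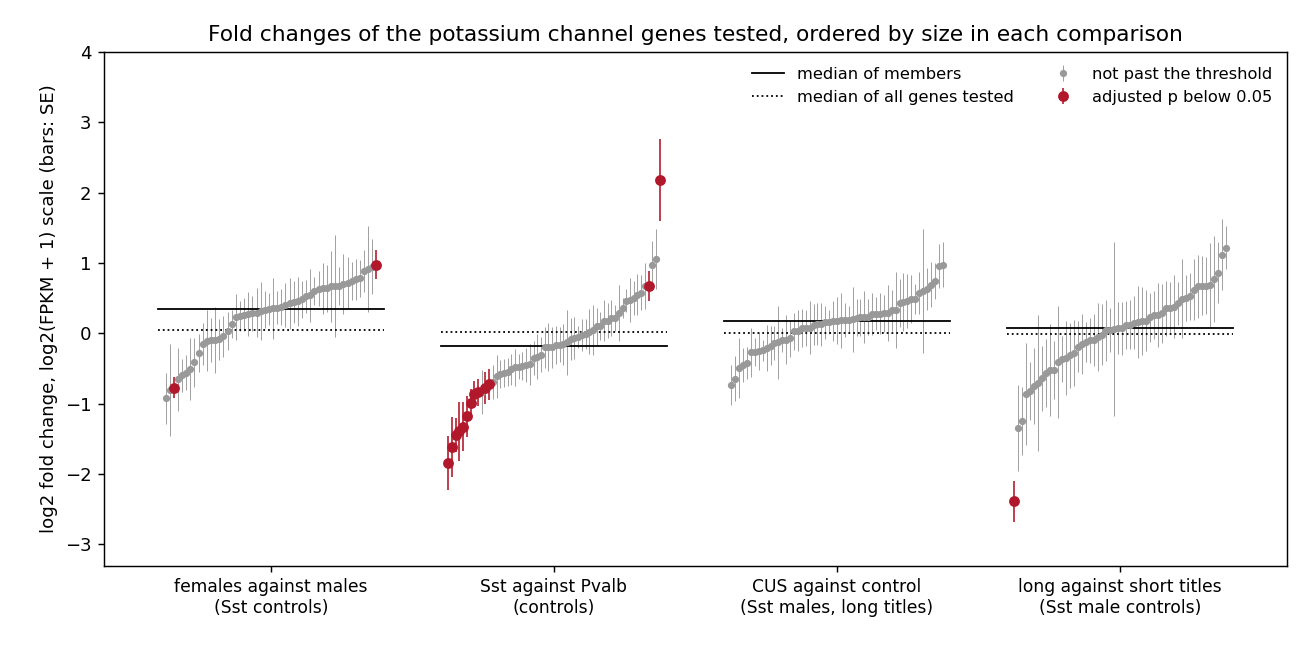
Log2 fold change with its SE for each member tested in the 4 comparisons, ordered by size within each; red points passed an adjusted p of 0.05, solid lines are the medians of the members and dotted lines those of all genes tested. The 13 genes past the threshold between Sst and Pvalb are mostly falls, and none passes after CUS.

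A list of 26 other potassium genes (pumps, cotransporters, HCN channels and channel partners) gave 4 calls, of which 3 are named. Abcc9 (SUR2, the partner of Kir6.1) was higher in females by a log2 fold change of 2.20 (limma, adjusted p = 0.00743). It was the 1 of 19 tested that passed (5.26%, against 3.41% of all genes tested), and it is also 1 of the 4 pericyte markers that were higher in females. Hcn2 (2.79, limma, adjusted p = 0.0275) and Tmem38b, a potassium channel of intracellular membranes (1.78, adjusted p = 0.0424), were higher in the long-titled males. They were 2 of 19 tested (10.5%, against 4.11% of all genes tested). With so few genes these shares are not read as particular to the list. After CUS 0 of 19 passed (1 with a p below 0.05 before adjustment). The sodium-potassium pump subunit Atp1b2 of astrocytes was the most abundant of this list, with a mean of 509.8 FPKM.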

How the data were processed

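The authors deposited FPKM values for 23993 genes, identified by symbol, in 24 libraries; every gene whose symbol starts with Kcn was a member. Per the study's methods, ribosome-depleted RNA was sequenced, reads were trimmed and aligned to mm10 with HISAT2, and genes were quantified with StringTie, although mm9 with TopHat2 is named in the sentence before; the submitters' processing notes name TopHat2, Cufflinks, Cuffdiff and mm10. The methods also name ComBat for batch effects and a removal of samples far from their group mean, and whether the deposited values went through either is not given in the sources used here. Such steps could shrink or shift differences between groups. FPKM holds no counts, so the reads per library and the counting error are unknown. Relative depth, read from the steps of the lowest values, was 0.460 to 2.46 (SST2-F = 1). Between 30 and 62 members per library exceeded 0.4 FPKM, and this number did not follow depth. SST0-M and SST1-M (depth 1.74 and 1.67) each had 30 members above 0.4 FPKM and 54 at 0, whereas PV6-M (0.480) had 62 above and 29 at 0. Depth is therefore no guide here to how reliable a low value or a 0 is. Nothing in the labels says that replicates came from separate animals, so p-values measure the spread between these samples only.

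Libraries of a group were averaged where the SD of their log2 ratio (genes above 5 FPKM in each) was under 10% of the SD of the second closest pair. Values were compared as log2(FPKM + 1), on which fold changes of low genes are understated. For each comparison, limma 3.58.1 in R 4.3.3 (two-sided, trend and robust) tested every gene whose mean in those samples exceeded 0.4 FPKM; p-values were adjusted by Benjamini-Hochberg across all of these, and 0.05 was the threshold. On simulated data with 200 changed genes, a log2 change of 1 was recovered in 30% (sex), 53% (Sst against Pvalb), 27% (CUS) and 0% (kind of title) of the genes, and a log2 change of 2 in 77%, 94%, 82% and 1%. The simulated noise was independent between genes, unlike real libraries that deviate in many genes at once. These rates therefore need not hold for the real samples. Alternatives were the low-value filter, the pseudocount, scaling, a minimum fold change, marker levels as covariates, other control sets, samples left out and a block by title number. Members, lists and tests were chosen with earlier results of these data known. Named were the Kv3, glial Kir and microglial lists, the 10 members of highest mean, the highest member of each family, up to 8 rises and 8 falls past the threshold per comparison, members listed at 0 throughout a group, and other potassium genes past the threshold; values of some of these genes are not reported here. All 97 members matched a RefSeq gene (GRCm38.p6) by symbol and 71 a promoter. All other steps ran in Python 3.11.15 (pandas 2.3.3).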

Additional observations from a re-analysis of the deposited data

Results flagged for a closer look

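In the groups of 6 and 7 samples, the lowest or highest sample of each named gene was compared with the nearest other. This was done on the log2 scale, also for the sums of 4 lists, and 23 of 65 checks exceeded Dixon's limit. SST-F held 14 of the 23 and PV0-M+PV2-M 8, and PV5-M the remaining 1. A single check exceeds the limit by chance in about 1 in 20 cases. The 65 checks share the same samples, and the sums hold genes also checked singly. Their count is therefore not set against that rate. Where all other samples had the same value (Kcnj4 for SST-F, Kcna5 for PV5-M), the limit was exceeded by construction.

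SST-F was above the other 6 Sst females for Kcnab2 (7.10 FPKM, others 0.964 to 1.93), Kcnc2 (1.16, others 0 to 0.245), Kcne4 (5.98, others 0 to 1.07), Kcnj2 (16.4, others 4.43 to 6.05), Kcnj4 (1.501, all others at 0) and Kcnj8 (27.4, others 4.46 to 8.996). It was below them for Kcnc4 (1.47 FPKM, others 7.87 to 9.20), Kcng4 (0.405, others 1.80 to 3.68), Kcnip3 (30.9, others 40.2 to 46.7), Kcnk1 (54.0, others 86.4 to 100.0), Kcnn2 (19.9, others 32.5 to 37.0) and Kcnn3 (13.5, others 22.4 to 25.4), and for the sums of the Kv3 genes (6.57, others 12.7 to 15.1) and of all members (461.3, others 492.5 to 507.4).

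PV0-M+PV2-M was below the other 5 Pvalb samples for Kcnab2 (0.550 FPKM, others 10.9 to 13.6), Kcnh1 (0, others 1.42 to 2.04), Kcnh3 (0, others 2.42 to 5.95) and Kcnip2 (0, others 7.09 to 9.19). It was above them for Kcnj16 (39.2 FPKM, others 16.2 to 22.5), Kcnj2 (19.7, others 6.99 to 9.87), Kcnj8 (10.2, others 0 to 0.704) and Kcnk1 (128.2, others 49.6 to 59.3). Kcna5 was at 0.114 FPKM in PV5-M and at 0 in the other 5. Of the 60 members with a mean above 0.4 FPKM, SST-F was the highest Sst female in 31 (51.7%, against 31.5% of 14566 genes) and the lowest in 19 (31.7%, against 29.8%).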

How the results depend on the processing

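Counts of members past the threshold moved with the samples more than with the scaling. The share of all genes past it is not given beside these counts, so they show no difference between members and other genes. Between the sexes (2 past it) quantile normalization gave 1, a minimum absolute log2 fold change of 1 gave 0, near-identical libraries kept apart gave 9, all male controls 4, the long-titled males alone 16, leaving out 1 sample 0 to 6, omitting SST0-M+SST1-M with SST-F 16, and the microglia level with 1 marker left out as covariate 0. Between Sst and Pvalb (13) the microglia level as covariate gave 0, or 2 with 1 marker left out, the pan-neuronal level 2, the minimum fold change 7, the short-titled males alone 0, the females alone 20, omitting the libraries of high Xist 0, omitting PV0-M+PV2-M with SST-F 22, and leaving out 1 sample 5 to 19 (5 without PV1-M, PV4-M or PV5-M, 8 without PV6-M, 19 without PV0-M+PV2-M). After CUS (0) the short-titled males as controls gave 4. Between kinds of title (1) quantile normalization gave 2, near-identical libraries kept apart 2, leaving out 1 sample 0 to 2, and omitting SS04031R with SST0-M+SST1-M 9. With the microglia level as covariate the log2 fold changes between Sst and Pvalb turned for Kcnab2 (0.29), Kcnh1 (0.42), Kcnip2 (0.16) and Kcnn2 (-0.42). That level does not overlap between these groups, so the fit cannot separate it from them. Nothing is concluded from these signs or from the count of 0. The log2 fold change of Kcnrg between the sexes turned with all male controls (0.42) and the long-titled males (1.61), and the cause was not tested. The title numbers did not pair the samples, and a replicate block gave 0 between the sexes (0 in the same samples unblocked, 14 with a p below 0.05 before adjustment under the block) and 12 between Sst and Pvalb (15 unblocked). Settings that leave out named pairs of samples, the unblocked fits, the pan-neuronal covariate and the microglia covariate with 1 marker left out were chosen after seeing the data. With no read counts deposited in the table used here, the counting error of low genes is unknown, and groups of 3 limit the CUS and title comparisons.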
